A study of Homo sapiens with 30 samples.

Results

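The genes of the unfolded protein response and the integrated stress response were followed in THP-1 cells, an established human line derived from an acute monocytic leukaemia, after exposure to manufactured nanomaterials. The 38 genes were listed by name from what is known of both responses, by a rule that uses no measured value, though earlier results of these data were known when the list was made. A gene was measured where at least 1 probe set, a group of array probes summarised to a single value, was annotated to that gene alone. That held for 35 of the 38 genes, and all 35 passed the filter on dim probe sets, among 10050 genes tested. DNAJB11, SESN2 and MARS1 were not analysed here.

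Before exposure every culture, the controls included, received 82 nM phorbol 12-myristate 13-acetate (PMA) for 24 h, which turns THP-1 monocytes into adherent macrophage-like cells, and was then scraped, counted and replated. The cells were then given multi-walled carbon nanotubes (MWCNT) at 10 or 100 µg/ml, titanium dioxide nanobelts (TiO2-NB) at 10 or 100 µg/ml, or no particles (control), each for 1 or 24 h. These 10 groups of 3 arrays make 30 arrays of total RNA from the washed adherent cells. The labels call the replicates biological without saying whether they were separate thaws or cultures, so p-values measure the spread between these arrays.

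The endoplasmic reticulum (ER) folds secreted and membrane proteins with a set of chaperones, and misfolded protein there is sensed by ATF6, by IRE1 (encoded by ERN1) and by PERK (encoded by EIF2AK3). ATF6 and the spliced form of XBP1 made by IRE1 activate genes for chaperones and for ER-associated degradation (ERAD), the disposal of proteins that fail to fold. PERK and other kinases phosphorylate the initiation factor eIF2, which lowers general translation while favouring that of ATF4, a transcription factor for amino acid uptake, amino acid synthesis and tRNA charging. Macrophages are secretory and phagocytic cells, and ATF3 and CEBPB are known there as regulators of inflammatory genes as well.

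The deposited values were log2 signals from robust multi-array average (RMA) processing. Array medians lay between 6.35 and 6.46, and the lowest correlation between arrays of 1 group was 0.994. Of 8 monocyte and macrophage markers, 7 were measured, and all 7 lay above the array's median on all 30 arrays, while of 4 epithelial markers EPCAM, CDH1 and KRT19 lay above the 25th percentile on 0 arrays and KRT18 on 30. The lymphocyte markers CD3D, CD3E and CD79A lay above the 25th percentile on 30 arrays and above the median on 0. Of 4 fibroblast markers, COL1A1 lay above the median on 30 arrays, DCN above the 25th percentile on 30 but above the median on 0, COL1A2 above the 25th percentile on 20 and COL3A1 on 0.

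Within each group 1 array stood apart in some of the 35 genes. At 1 h, HERPUD1 read 11.13 to 11.22 on 1 array of each group and 10.51 to 10.70 on the others, and DNAJB9 read 10.25 to 10.32 on the same arrays and 9.31 to 9.73 on the others. These were replicate 2 of the control, of both MWCNT groups and of TiO2-NB at 100 µg/ml, and replicate 1 of TiO2-NB at 10 µg/ml. At 24 h, VLDLR read 7.70 to 7.82 on 1 array of each group and 8.07 to 8.51 on the others. These were replicate 1 of MWCNT and of TiO2-NB at 100 µg/ml and replicate 3 of the control and of both 10 µg/ml groups, and each was the lowest of its group in 12 or 13 of the 13 chaperones. Results are therefore also given for 20 arrays without these 10. At 1 h the array with the highest HERPUD1 of its group was left out, and at 24 h that with the lowest VLDLR. That choice rests on values of the genes themselves and adds no support. This holds most of all for HERPUD1, VLDLR and genes that stood apart on the same arrays, whose spread it lowers.

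With TiO2-NB at 100 µg/ml for 24 h the ER chaperones were lower and the transcription factors of the integrated stress response higher than in controls. A gene is said here to have risen or fallen where limma's moderated test gave an adjusted p under 0.05 over all 10050 genes. Of the 35 genes, 7 rose and 10 fell against control, while 22.1% of all genes passed (10.9% higher, 11.1% lower). The 3 TiO2-NB arrays lay wholly above the control arrays in 10 of the genes and wholly below them in 11, and groups that did not overlap were seen in 33.3% of all genes. In bulk RNA, fewer cells of a type and less RNA per cell cannot be told apart. Without the 10 arrays that stood apart, 8 rose and 13 fell, with 21.6% of all genes passing.

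**Figure D1:**
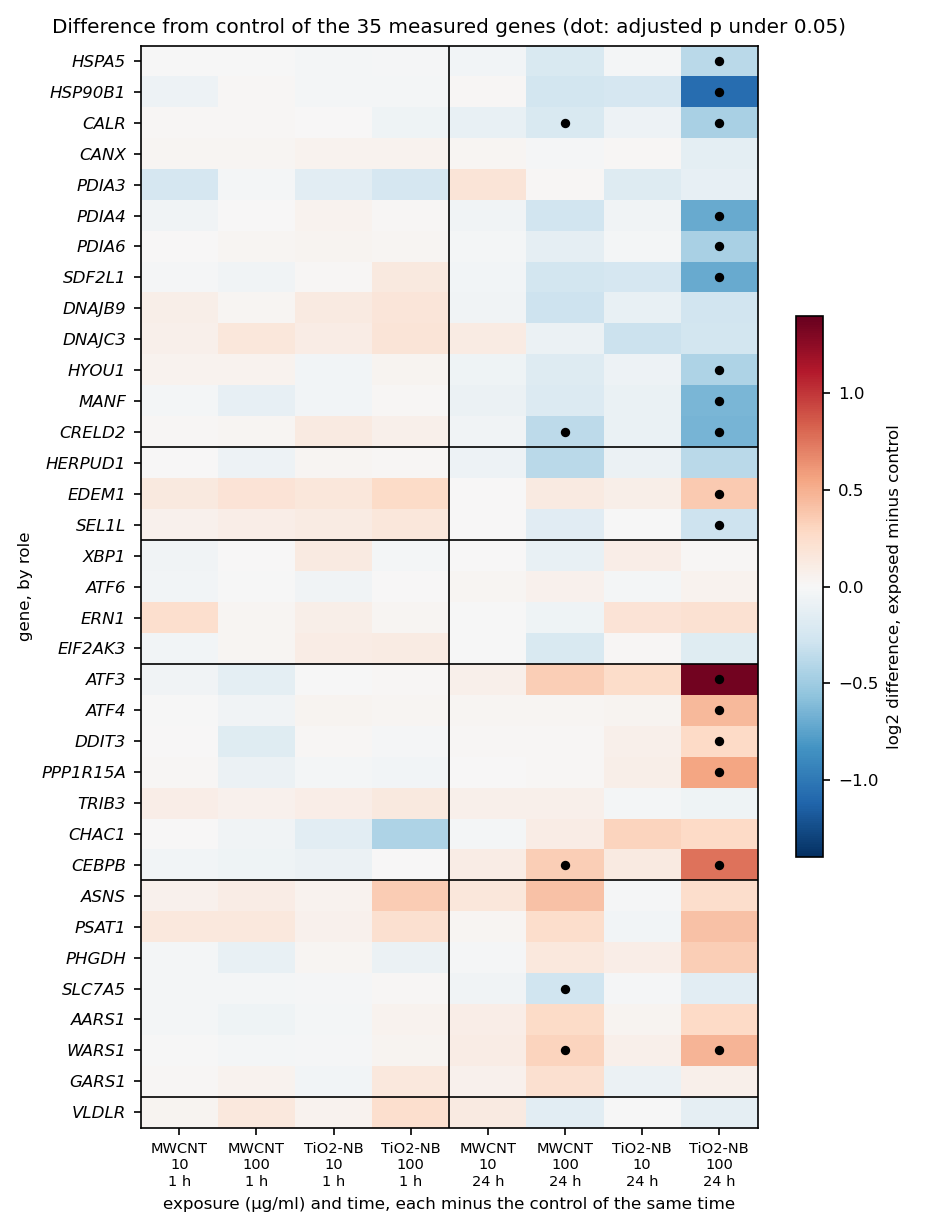
Difference from the control of the same time (log2 scale, colour) for the 35 genes (rows, ordered by role) in the 8 exposures (columns, 1 h and then 24 h). A dot marks an adjusted p under 0.05. Dots stand in the columns of 100 µg/ml at 24 h, 17 for TiO2-NB and 5 for MWCNT, and in no other column.

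Among the 13 ER chaperones and folding enzymes, 0 rose and 9 fell with TiO2-NB at 100 µg/ml for 24 h. Their median difference from control was -0.45 on the log2 scale, against 0.01 over all genes. HSP90B1, which encodes the ER form of HSP90 (GRP94), fell most, by 1.06 ± 0.16 on the log2 scale (SE, limma, adjusted p = 1.88e-05), a 2.09-fold lower level. Its log2 signal was 8.0, 8.06 and 8.29 on the TiO2-NB arrays, against 9.30, 9.34 and 8.90 on the control arrays. Every TiO2-NB array was below every control array.

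CRELD2, a chaperone of disulphide-rich proteins, read 9.24, 9.45 and 9.28 with TiO2-NB and 10.02, 10.04 and 9.88 in controls. PDIA4, a disulphide isomerase of the ER, read 9.11, 9.21 and 9.52 with TiO2-NB and 10.11, 10.12 and 9.75 in controls. In both genes the groups did not overlap, with differences of -0.66 ± 0.07 for CRELD2 (SE, limma, adjusted p = 5.1e-07) and -0.71 ± 0.13 for PDIA4 (SE, limma, adjusted p = 0.000184).

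MANF, a secreted ER-resident factor that is induced when the ER is stressed, read 9.69, 9.97 and 9.90 with TiO2-NB and 10.56, 10.58 and 10.32 in controls. CALR, the lectin chaperone calreticulin, read 10.53, 10.60 and 10.57 with TiO2-NB and 11.09, 10.99 and 10.99 in controls. The groups were separate in both, and the differences were -0.64 ± 0.10 for MANF (SE, limma, adjusted p = 3.37e-05) and -0.45 ± 0.07 for CALR (SE, limma, adjusted p = 2.87e-05).

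HSPA5, which encodes BiP, the central ER chaperone that also holds the 3 sensors inactive, read 11.86, 12.04 and 12.15 with TiO2-NB and 12.47, 12.56 and 12.13 in controls. The highest TiO2-NB array was above the lowest control array, so the groups overlapped. The difference of -0.37 ± 0.10 passed (SE, limma, adjusted p = 0.00598), but without control replicate 2 it was -0.29 with an adjusted p of 0.0544. Without the arrays that stood apart it was -0.42 (adjusted p = 0.000426). In a fit of only these 2 groups HSPA5 did not pass (limma, adjusted p = 0.105).

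SDF2L1, a partner of BiP, fell by 0.70, PDIA6, another disulphide isomerase, fell by 0.45, and HYOU1, the nucleotide exchange factor of BiP, fell by 0.43 on the log2 scale. In these 3 genes too the TiO2-NB and control arrays did not overlap. In a fit of only these 2 groups SDF2L1 kept its call, while PDIA6 (limma, adjusted p = 0.0556) and HYOU1 (0.0573) did not pass. CANX, a membrane-bound lectin chaperone, differed by -0.13, PDIA3, a disulphide isomerase for glycoproteins, by -0.11, and the BiP co-chaperones DNAJB9 and DNAJC3 by -0.26 and -0.25, and none of the 4 passed in the fit of 30 arrays. DNAJB9 (-0.38, adjusted p = 0.0209) and DNAJC3 (-0.32, adjusted p = 0.0487) passed without the arrays that stood apart. Probe sets of CANX disagreed, since one that did not stand for the gene differed by -0.47 and passed. The other probe set annotated to HSP90B1 alone differed by -0.99, close to the -1.06 of the first. Further probe sets, annotated to HSP90B1 and the microRNA gene MIR3652 together, were not used.

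**Figure D2:**
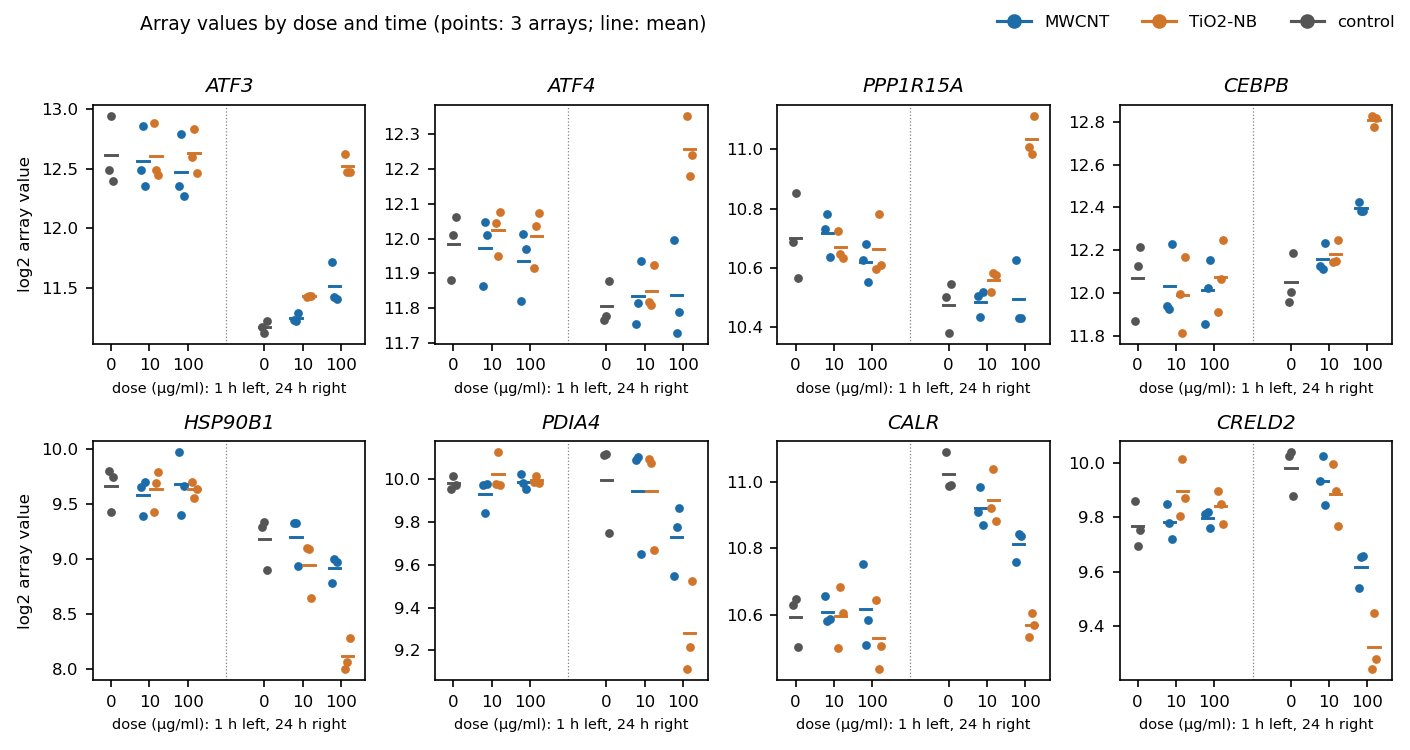
Log2 signal (vertical axis) of each array for 8 genes against dose (0, 10 and 100 µg/ml, horizontal axis). Each panel has 1 h on the left and 24 h on the right. Points are the 3 arrays of a group, and short lines mark group means. At 24 h the TiO2-NB arrays at 100 µg/ml lie from 12.47 to 12.62 for ATF3 and from 8.0 to 8.29 for HSP90B1, apart from the control arrays in both.

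Promoters of the chaperones are shown because they are where ATF6 and XBP1 are known to act on this group. The ER stress response element (ERSE, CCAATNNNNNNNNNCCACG, searched on both strands) was looked for in the 250 bases before the start of each gene as RefSeq gives it on GRCh38.p14, with a sequence for 37 of the 38 genes. It was found before 5 of the 13 chaperone genes searched, which take in DNAJB11 but not PDIA3 (HSPA5, HSP90B1, CALR, CANX and CRELD2) and before XBP1, and before 26 of 35116 promoters in all (0.074%). The 3 chaperones shown passed in the most comparisons among those with this element or a related one. That all 3 are lower with TiO2-NB follows in part from this choice. The fixed letters of the element are in capitals, and it occurs in 2 copies in HSP90B1. The windows are chr22:49918384-49918633 for CRELD2, chr19:12938359-12938608 for CALR and chr12:103930160-103930409 for HSP90B1, each on the plus strand.
CRELD2: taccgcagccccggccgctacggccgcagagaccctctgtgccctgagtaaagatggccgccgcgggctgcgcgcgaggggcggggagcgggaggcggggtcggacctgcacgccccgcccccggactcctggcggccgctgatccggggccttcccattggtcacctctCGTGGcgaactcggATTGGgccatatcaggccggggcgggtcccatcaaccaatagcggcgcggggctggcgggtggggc
CALR: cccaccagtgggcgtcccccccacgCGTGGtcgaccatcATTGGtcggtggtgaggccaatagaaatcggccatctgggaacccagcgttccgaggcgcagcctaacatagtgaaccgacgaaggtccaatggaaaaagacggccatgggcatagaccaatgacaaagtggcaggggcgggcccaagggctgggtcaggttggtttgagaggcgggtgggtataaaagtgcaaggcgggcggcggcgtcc
HSP90B1: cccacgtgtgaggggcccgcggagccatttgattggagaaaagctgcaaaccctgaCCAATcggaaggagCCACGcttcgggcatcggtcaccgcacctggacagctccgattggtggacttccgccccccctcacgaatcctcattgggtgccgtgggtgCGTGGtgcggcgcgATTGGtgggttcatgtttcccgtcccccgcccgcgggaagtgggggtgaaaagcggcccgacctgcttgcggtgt
The matches of HSPA5 at -66 to -48, of CANX at -151 to -133 and of XBP1 at -52 to -34 from the gene's start differ in the 9 bases between both fixed parts.
HSPA5: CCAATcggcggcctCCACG
CANX: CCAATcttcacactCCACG
XBP1: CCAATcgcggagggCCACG
Of these 6 genes, HSPA5, HSP90B1, CALR and CRELD2 fell with TiO2-NB at 100 µg/ml for 24 h, while CANX and XBP1 did not pass. Of the chaperones without an ERSE match, PDIA4 (-0.71), SDF2L1 (-0.70), MANF (-0.64), PDIA6 (-0.45) and HYOU1 (-0.43) fell there as well. DNAJB9 and DNAJC3, also without a match, did not pass with all arrays in the fit. A link between the element and the fall was not tested. The related ERSE-II element (ATTGG and CCACG with 1 base of any kind between them, both strands) was found before SDF2L1, HYOU1 and HERPUD1, and in 0.051% of all promoters. The core of the unfolded protein response element (TGACGTGG, both strands) was found before HYOU1, where it overlaps 1 of the gene's 2 ERSE-II matches, and in 0.612% of all promoters. A match is a description of letters and not of binding.

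The 3 ERAD genes did not move together with TiO2-NB at 100 µg/ml for 24 h. EDEM1, a mannosidase-like factor that picks out misfolded glycoproteins, rose by 0.37 ± 0.10 (SE, limma, adjusted p = 0.00934) on the log2 scale. Its arrays read 9.47, 9.70 and 9.74 with TiO2-NB and 9.30, 9.43 and 9.08 in controls. No TiO2-NB array was below a control array, but without control replicate 3 the adjusted p was 0.0763 and without TiO2-NB replicate 3 it was 0.0518. SEL1L, the adaptor of the HRD1 ubiquitin ligase, read 9.35, 9.25 and 9.45 with TiO2-NB and 9.56, 9.76 and 9.62 in controls, and fell by 0.29 ± 0.07 (SE, limma, adjusted p = 0.00526). HERPUD1, a membrane component of the same complex, lay below the control on all 3 arrays, with 10.26, 10.43 and 10.35 against 10.73, 10.77 and 10.68. Its difference of -0.38 did not pass in the fit of 30 arrays (limma, adjusted p = 0.139). Without the arrays that stood apart it was -0.36 (limma, adjusted p = 0.000783), but values of HERPUD1 had chosen the 1 h arrays left out. In a fit of only the TiO2-NB and control arrays compared, neither SEL1L (limma, adjusted p = 0.0768) nor EDEM1 (0.0793) passed.

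None of the sensors passed with TiO2-NB. The differences were 0.05 for ATF6, 0.21 for ERN1 and -0.17 for EIF2AK3. XBP1, whose product carries the signal of IRE1 once its mRNA is spliced, read 8.83, 8.62 and 8.75 with TiO2-NB and 8.75, 8.76 and 8.64 in controls, a difference of 0.02. The probe set gives 1 value for the XBP1 transcript, and the spliced form was not measured by itself.

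Of 7 transcription factors and feedback genes of the integrated stress response, 5 rose and 0 fell with TiO2-NB, with a median difference of 0.45. ATF3, an early stress-induced repressor downstream of ATF4, read 12.62, 12.47 and 12.47 with TiO2-NB and 11.18, 11.13 and 11.22 in controls. It rose by 1.35 ± 0.15 on the log2 scale (SE, limma, adjusted p = 3.63e-07), a 2.54-fold higher level, and the groups were far apart relative to their spread. Among the 35 genes this was the largest difference of either sign in the comparison.

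CEBPB, a transcription factor that partners ATF4 and also serves in macrophage activation, read 12.83, 12.77 and 12.82 with TiO2-NB and 11.96, 12.00 and 12.19 in controls. PPP1R15A, which encodes GADD34, the subunit that returns eIF2 to its unphosphorylated state, read 11.01, 10.98 and 11.11 with TiO2-NB and 10.50, 10.38 and 10.55 in controls. Both rose without overlap, CEBPB by 0.76 ± 0.10 (SE, limma, adjusted p = 8.67e-06) and PPP1R15A by 0.56 ± 0.07 (SE, limma, adjusted p = 4.61e-06).

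ATF4, the transcription factor at the centre of this response, read 12.35, 12.18 and 12.24 with TiO2-NB and 11.77, 11.78 and 11.88 in controls, a rise of 0.45 ± 0.08 (SE, limma, adjusted p = 0.000139). DDIT3, which encodes the pro-apoptotic factor CHOP, read 10.49, 10.35 and 10.29 with TiO2-NB and 10.14, 10.03 and 10.11 in controls. Its rise of 0.28 ± 0.09 was small though the groups did not overlap (SE, limma, adjusted p = 0.0205). It no longer passed without TiO2-NB replicate 1 (adjusted p = 0.106), without control replicate 2 (0.0818) or without the arrays that stood apart (0.153). Nor did DDIT3 pass in a fit of only these 2 groups (limma, adjusted p = 0.0676). TRIB3, a pseudokinase induced by CHOP, differed by -0.06 (limma, adjusted p = 0.776).

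CHAC1, which degrades glutathione and is a target of ATF4, read 6.41, 6.49 and 6.26 with TiO2-NB and 6.26, 5.96 and 6.09 in controls. Its difference of 0.28 did not pass (limma, adjusted p = 0.13). Its promoter is shown because, with those of AARS1 and HERPUD1, it holds the C/EBP-ATF element bound by ATF4 (TGATGCAA, both strands), which occurs in 0.772% of all promoters. The element is in capitals in the window chr15:40953221-40953470 on the plus strand.
CHAC1: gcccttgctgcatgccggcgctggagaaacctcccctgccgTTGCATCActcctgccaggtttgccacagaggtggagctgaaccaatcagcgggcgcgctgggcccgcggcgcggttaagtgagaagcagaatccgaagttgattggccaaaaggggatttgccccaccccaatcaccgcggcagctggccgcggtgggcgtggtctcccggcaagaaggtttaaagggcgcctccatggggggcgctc
Neither AARS1, with a difference of 0.28, nor HERPUD1 passed at 24 h in the fit of 30 arrays, and both passed without the arrays that stood apart.

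Among 7 genes for amino acid supply and tRNA charging, only WARS1 passed with TiO2-NB in the fit of 30 arrays. Without the arrays that stood apart, PHGDH (0.46, adjusted p = 0.00279) and AARS1 (0.39, adjusted p = 0.0279) passed as well. WARS1, the tryptophanyl-tRNA synthetase, read 10.63, 10.55 and 10.56 with TiO2-NB and 10.09, 10.01 and 10.20 in controls, a rise of 0.48 ± 0.06 (SE, limma, adjusted p = 3.69e-06). WARS1 is also known as a target of interferon, and of the interferon-induced genes set beside it IRF1, a transcription factor, rose by 0.61 while GBP1, a GTPase, differed by -0.09 (limma, adjusted p = 0.721). The part of these genes in the result was not tested. ASNS, the asparagine synthetase and a standard ATF4 target, read 7.39, 7.16 and 7.41 with TiO2-NB and 6.86, 7.09 and 7.28 in controls, which overlap. The differences were 0.24 for ASNS (limma, adjusted p = 0.371), 0.41 for PSAT1 and 0.34 for PHGDH, enzymes of serine synthesis, 0.07 for GARS1, another synthetase, and -0.15 for SLC7A5, a transporter of large amino acids. VLDLR, a lipoprotein receptor known to be induced through PERK, differed by -0.12. The immediate early genes IER2 and EGR1, which also answer to handling and growth signals, differed by 0.09 and 0.05, and neither passed.

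The other genes of both pathways, 91 measured of 106 listed, split by role in the same comparison. Over all genes 10.9% were higher and 11.1% lower there. Of 18 further ER folding genes 0 rose and 9 fell (median -0.25), among them FKBP14 (-0.75), PPIB (-0.62), which are prolyl isomerases, and SIL1 (-0.55), an exchange factor of BiP. Of 21 genes for translocation, glycan trimming and degradation 0 rose and 8 fell (median -0.16), with UBE2J1, an ERAD ubiquitin-conjugating enzyme, at -0.41. Of 23 further ATF4 targets 9 rose and 1 fell (median 0.24). SLC7A11, the cystine transporter, rose by 1.53 ± 0.25 (SE, limma, adjusted p = 8.55e-05). SLC1A4, which also carries amino acids, rose by 0.80 and SLC3A2 by 0.67, while EIF4EBP1, a repressor of translation initiation, fell by 0.33. Of 12 further cytosolic tRNA synthetases 4 rose and 0 fell, TARS1 by 0.43 and YARS1 by 0.40. Among 17 genes of sensing and signalling 2 rose, EIF2S1, which encodes the phosphorylated subunit of eIF2, by 0.28 and EIF2B4 by 0.18, and DNAJC4 fell by 0.32.

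**Figure D3:**
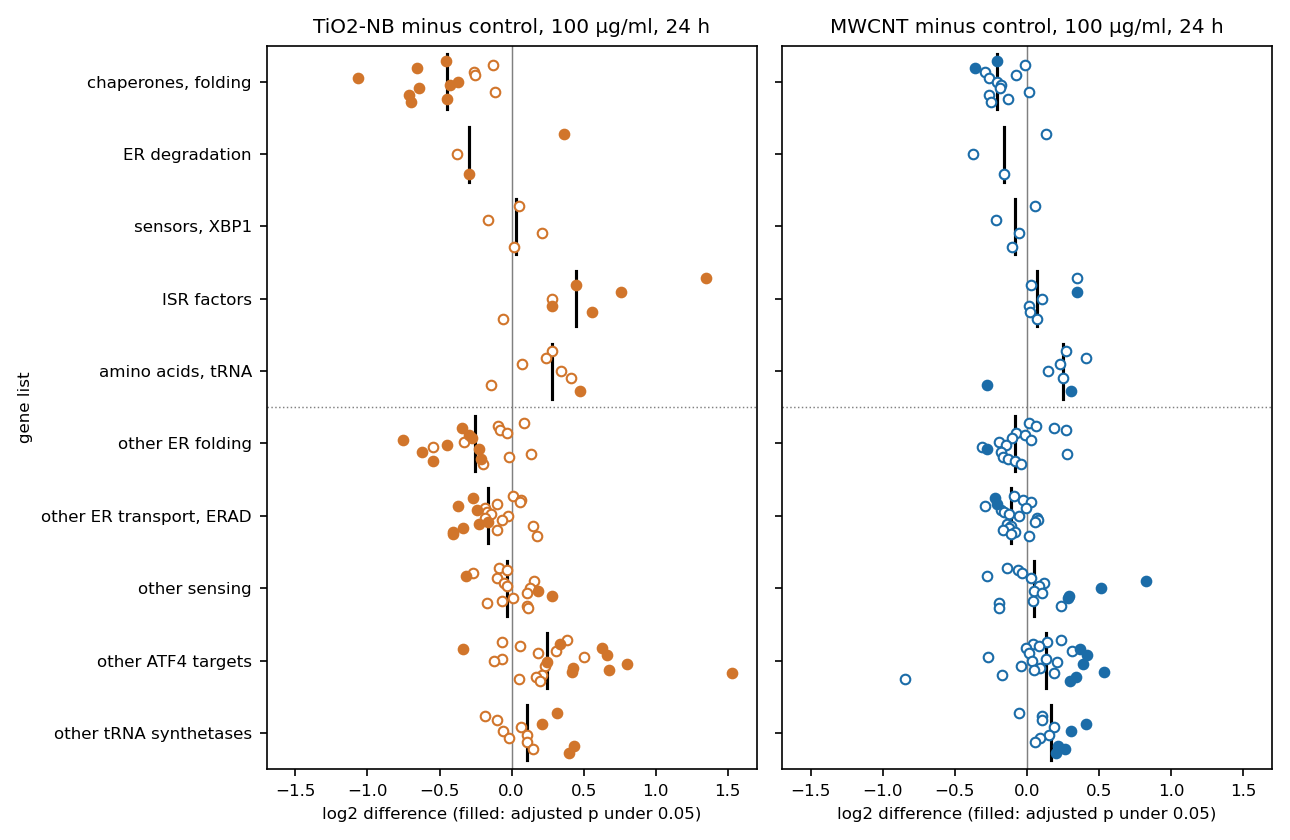
Difference from control at 100 µg/ml for 24 h (log2 scale, horizontal axis) of each gene, by list (rows), for TiO2-NB and MWCNT in separate panels; black bars are list medians, and lists under the dotted line hold pathway genes outside the 38. With TiO2-NB the chaperones have a median of -0.45 and the integrated stress response factors one of 0.45, against -0.21 and 0.07 with MWCNT.

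With MWCNT at 100 µg/ml for 24 h, CEBPB and WARS1 rose and CRELD2, SLC7A5 and CALR fell against control. These 5 of the 35 genes, 2 higher and 3 lower, stand beside 13% of all genes that passed (8.99% higher, 4.04% lower), which is a similar share. The count of 5 was 3 without control replicate 1 or 2 or MWCNT replicate 1 and 2 without MWCNT replicate 2 or 3. The arrays did not overlap in 12 of the genes, 6 above and 6 below, and in 30% of all genes. The split of all calls depended on scaling, with 903 higher and 406 lower as deposited and 674 higher and 679 lower once each array was centred on its median. Both particle types were set against the same control arrays.

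CRELD2 read 9.54, 9.66 and 9.66 with MWCNT and 10.02, 10.04 and 9.88 in controls, a difference of -0.36 ± 0.07 without overlap (SE, limma, adjusted p = 0.00138). WARS1 read 10.40, 10.42 and 10.41 with MWCNT and 10.09, 10.01 and 10.20 in controls, a rise of 0.31 ± 0.06 (SE, limma, adjusted p = 0.00122). These were the calls that no single array ended. GBP1 rose beside WARS1 here, by 0.57 ± 0.15 (SE, limma, adjusted p = 0.00976), while IRF1 differed by -0.21 (limma, adjusted p = 0.374), and their part in the result was not tested.

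SLC7A5 read 9.09, 8.75 and 8.77 with MWCNT and 9.17, 9.13 and 9.16 in controls. It fell by 0.28 ± 0.07 (SE, limma, adjusted p = 0.00586), and without MWCNT replicate 2 or 3 the adjusted p was 0.0542 and 0.0506. CEBPB read 12.43, 12.38 and 12.38 with MWCNT and 11.96, 12.00 and 12.19 in controls, a rise of 0.35 ± 0.10 (SE, limma, adjusted p = 0.0265). The arrays were apart, yet the call was lost without control replicate 1 or 2 or any MWCNT array, with adjusted p from 0.0612 to 0.132. CALR read 10.76, 10.84 and 10.84 with MWCNT and 11.09, 10.99 and 10.99 in controls, a difference of -0.21 ± 0.07 (SE, limma, adjusted p = 0.0434) that was lost without any 1 of the 6 arrays.

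The chaperones had a median difference of -0.21 with MWCNT and 2 of 13 fell. HSP90B1 differed by -0.26, PDIA4 by -0.26 and HSPA5 by -0.21 (limma, adjusted p = 0.163), but HSPA5 passed without control replicate 3 (-0.34, adjusted p = 0.0154). ATF3 read 11.72, 11.43 and 11.41 with MWCNT and 11.18, 11.13 and 11.22 in controls. Its arrays lay above the control, but the difference of 0.35 did not pass (limma, adjusted p = 0.133). ASNS differed by 0.41 (limma, adjusted p = 0.137), and ATF4, DDIT3 and PPP1R15A by 0.03, 0.02 and 0.02. XBP1 differed by -0.11 and ERN1 by -0.06, and neither passed.

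Without the 10 arrays that stood apart, 3 genes rose and 7 fell with MWCNT at 100 µg/ml for 24 h, with 15.8% of all genes passing. ATF3 then passed at 0.27 (adjusted p = 0.0124), HSPA5 at -0.28 (adjusted p = 0.00931) and HERPUD1 at -0.43 (adjusted p = 0.000231), and 5 of the 13 chaperones fell. CALR (adjusted p = 0.11) and CEBPB (adjusted p = 0.0902) did not pass.

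In the other pathway genes 15 of 91 rose and 3 fell with MWCNT, beside 8.99% of all genes higher and 4.04% lower. As said above, the split over all genes depended on scaling. EIF2AK2, which encodes PKR, an eIF2 kinase that senses double-stranded RNA and is itself induced by interferon, rose by 0.83 ± 0.12 (SE, limma, adjusted p = 3.83e-05). EIF2B3, a subunit of the exchange factor of eIF2, rose by 0.51. Of 23 further ATF4 targets 6 rose and 0 fell, SLC7A1, a transporter of basic amino acids, by 0.53, and SLC7A11 differed by 0.19 without passing. Of 12 further tRNA synthetases 5 rose, IARS1 by 0.41 and LARS1 by 0.30. Among 18 ER folding genes P4HB, a disulphide isomerase, fell by 0.28.

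MWCNT and TiO2-NB differed from each other at 100 µg/ml and 24 h. In MWCNT minus TiO2-NB, 7 of the 35 genes were higher and 6 lower, while 24.9% of all genes passed (14% higher, 10.9% lower). The arrays of both materials did not overlap in 15 of the genes, 8 with MWCNT above and 7 with MWCNT below, and in 40.8% of all genes. As deposited, all 7 that were higher are chaperones, and the 6 that were lower are WARS1 and 5 of the integrated stress response factors. The split of all calls was 1411 higher and 1094 lower as deposited, and 1054 higher and 1646 lower with each array centred on its median. With that centring 4 of the 35 genes were higher and 8 lower, and CALR (adjusted p = 0.0524), PDIA6 (0.0608) and SDF2L1 (0.0745) did not pass. With both materials at the same mass per volume, nothing is known here of dose per surface or per particle.

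**Figure D4:**
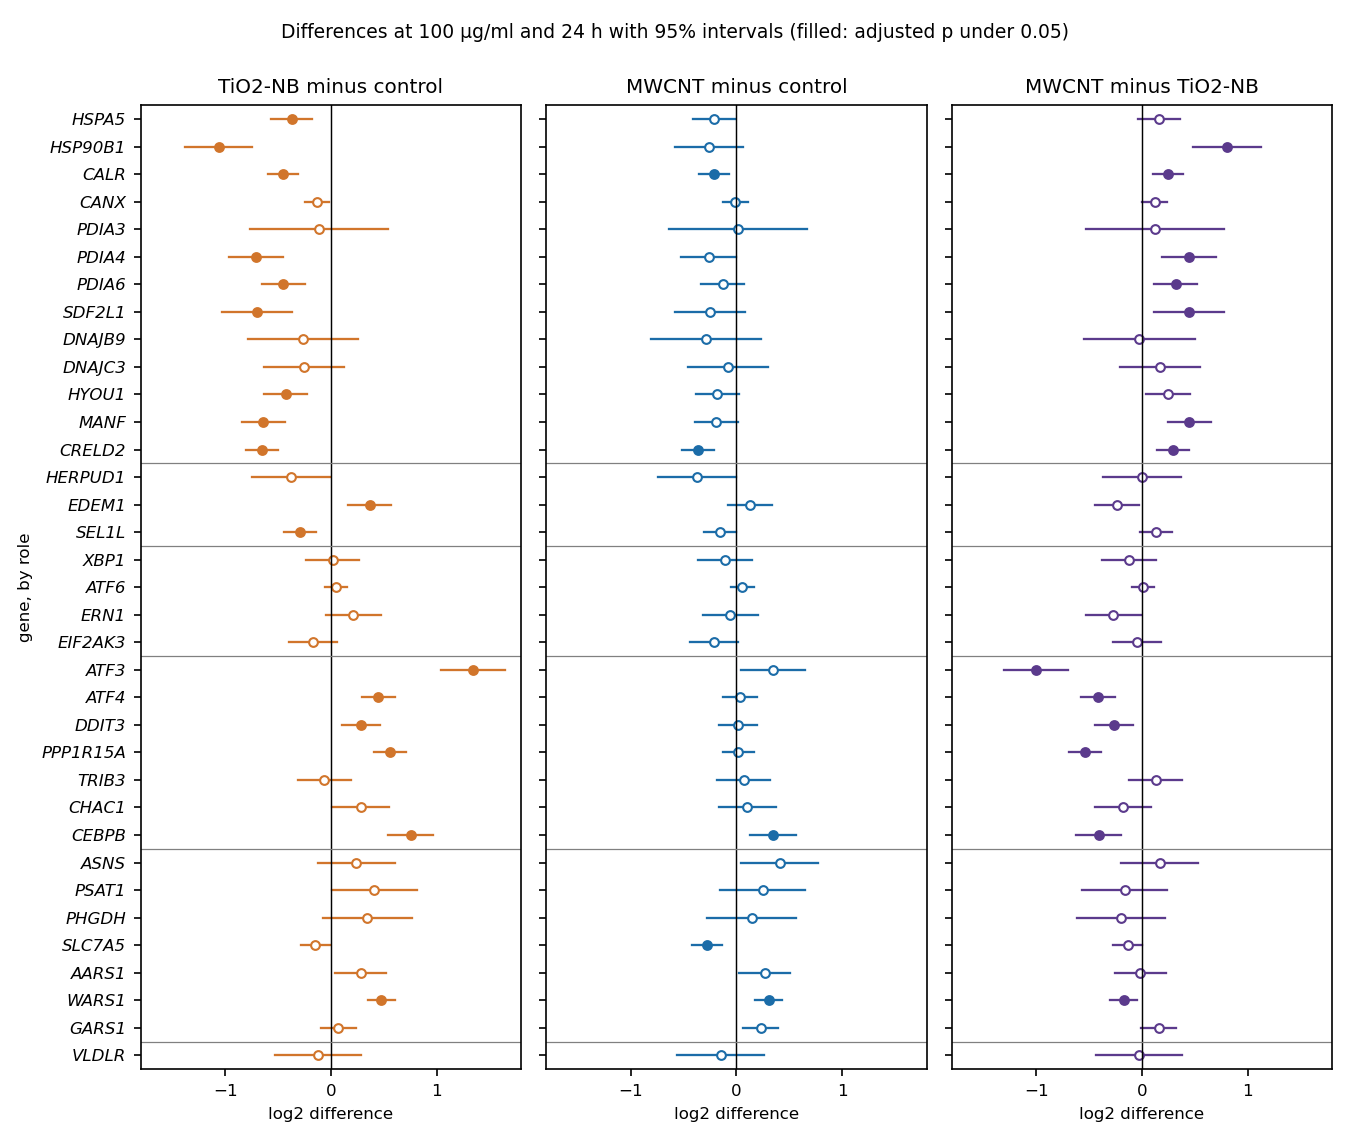
Differences at 100 µg/ml and 24 h (log2 scale, horizontal axis; bars are 95% intervals) for the genes (rows) in 3 panels, TiO2-NB minus control, MWCNT minus control and MWCNT minus TiO2-NB; filled points have an adjusted p under 0.05. HSP90B1 lies at -1.06, -0.26 and 0.80 and ATF3 at 1.35, 0.35 and -1.0.

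HSP90B1 read 8.78, 9.0 and 8.97 with MWCNT and 8.0, 8.06 and 8.29 with TiO2-NB, so that MWCNT was higher by 0.80 ± 0.16 (SE, limma, adjusted p = 0.000651). MANF read 10.10, 10.43 and 10.38 with MWCNT and 9.69, 9.97 and 9.90 with TiO2-NB, a difference of 0.45 ± 0.10 (SE, limma, adjusted p = 0.00181). The arrays of both materials were separate in each gene. CRELD2 was higher with MWCNT by 0.29 ± 0.07 (SE, limma, adjusted p = 0.00518), CALR by 0.24 and PDIA4 by 0.45. PDIA6 was higher by 0.32 and SDF2L1 by 0.45 with overlapping arrays. HSPA5 differed by 0.16 ± 0.10 (SE, limma, adjusted p = 0.222), which does not show that both materials act alike on it.

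ATF3 read 11.72, 11.43 and 11.41 with MWCNT and 12.62, 12.47 and 12.47 with TiO2-NB (difference -1.0 ± 0.15, SE, limma, adjusted p = 3.34e-05). PPP1R15A read 10.63, 10.43 and 10.43 with MWCNT and 11.01, 10.98 and 11.11 with TiO2-NB, a difference of -0.54 ± 0.07 (SE, limma, adjusted p = 1.35e-05). Each gene was lower on every MWCNT array. ATF4 differed by -0.42 (limma, adjusted p = 0.000403), CEBPB by -0.41 (limma, adjusted p = 0.00583), DDIT3 by -0.27 (limma, adjusted p = 0.0274) and WARS1 by -0.17 (limma, adjusted p = 0.0454). IRF1 was lower with MWCNT (-0.83) and GBP1 higher (0.66), and both passed.

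Calls for PDIA4, PDIA6, SDF2L1, DDIT3 and WARS1 were each lost on leaving out 1 array, and the count of 13 fell to 8 without MWCNT replicate 3. Same-numbered arrays of the 2 materials deviated together (correlations 0.62, 0.44 and 0.36). With the replicate number as a block 13 genes passed in the fit of all arrays. In a fit of these 2 groups alone 10 passed without the block and 14 with it. HYOU1 (0.25, adjusted p = 0.0231) and EDEM1 (-0.24, adjusted p = 0.0296) passed in that blocked fit of 2 groups, and WARS1 did not pass in the fit of 2 groups without the block (adjusted p = 0.0894) or with it (0.0603). Without the arrays that stood apart, 8 genes were higher and 6 lower, with 24.7% of all genes passing. CEBPB (adjusted p = 0.0579), DDIT3 (0.162) and WARS1 (0.0909) then did not pass. SLC7A5 (-0.29), EDEM1 (-0.28), PHGDH (-0.27) and HYOU1 (0.21) passed there. ERN1 passed without TiO2-NB replicate 3 (-0.39, adjusted p = 0.0451). Of the further ATF4 targets 8 of 23 were lower with MWCNT and 1 higher, SLC7A11 by -1.34 and EIF4EBP1 by 0.70. Of 18 further ER folding genes 8 were higher and 0 lower, beside 14% of all genes higher and 10.9% lower as deposited.

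The doses of TiO2-NB differed at 24 h. Between 100 and 10 µg/ml of TiO2-NB, 5 genes were higher and 9 lower at 100 µg/ml, with 13.5% of all genes passing (7.38% higher, 6.1% lower). ATF3 read 11.18, 11.13 and 11.22 in controls, 11.42, 11.44 and 11.44 at 10 µg/ml and 12.62, 12.47 and 12.47 at 100 µg/ml, and its difference between doses was 1.09 ± 0.15 (SE, limma, adjusted p = 1.44e-05). All 3 arrays at 10 µg/ml lay above the control arrays, but their difference of 0.26 did not pass (limma, adjusted p = 0.999). HSP90B1 read 9.30, 9.34 and 8.90 in controls, 9.10, 9.09 and 8.65 at 10 µg/ml and 8.0, 8.06 and 8.29 at 100 µg/ml, lower at the higher dose (difference -0.83, limma, adjusted p = 0.000636). The arrays at 10 µg/ml overlapped the controls. CRELD2 differed between doses by -0.56, MANF by -0.55, CEBPB by 0.63, PPP1R15A by 0.47, ATF4 by 0.41 and WARS1 by 0.40. Calls of HSPA5 and HYOU1 were lost without replicate 1 or 2 at 10 µg/ml or replicate 1 at 100 µg/ml, and that of SEL1L without replicate 1 or 2 at 10 µg/ml or replicate 2 at 100 µg/ml, with adjusted p from 0.0521 to 0.133.

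For MWCNT 0 genes were higher and 2 lower at 100 than at 10 µg/ml, while 4.67% of all genes passed (3.1% higher, 1.56% lower). These were CRELD2 (-0.32, limma, adjusted p = 0.0117) and SLC7A5 (-0.23, limma, adjusted p = 0.0469), and 0 passed without replicate 1 or 2 at 10 µg/ml and 1 with any single one of the other 4 arrays left out. Without the arrays that stood apart, 1 was higher and 4 were lower, with 7.22% of all genes passing.

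At 10 µg/ml for 24 h none of the 35 genes passed for either material, and of all genes 0% passed for MWCNT and 0.0199% for TiO2-NB. The differences from control lay between -0.10 for CALR and 0.18 for PDIA3 with MWCNT, and between -0.30 for DNAJC3 and 0.31 for CHAC1 with TiO2-NB. At an unadjusted p under 0.05 they numbered 0 with MWCNT and 1, CHAC1, with TiO2-NB. Some genes meet that threshold where nothing differs, and the share of all genes that meet it is not given here. Such counts are therefore not results about the 35 genes. CHAC1 read 6.28, 6.66 and 6.31 with TiO2-NB at 10 µg/ml and 6.26, 5.96 and 6.09 in controls, without overlap. MWCNT set against TiO2-NB at this dose gave 0 calls in the 35 genes (0.00995% of all genes), with 2 genes, DNAJC3 and CHAC1, at an unadjusted p under 0.05.

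At 1 h none of the 35 genes passed at either dose of either material. Over all genes, 0% passed for MWCNT at 10 µg/ml, for MWCNT at 100 µg/ml and for TiO2-NB at 10 µg/ml, and 1.15% for TiO2-NB at 100 µg/ml (0.219% higher, 0.935% lower). Of those 116 genes 22 were higher and 94 lower as deposited, 6 higher and 291 lower with each array centred on its median, and 9 higher and 31 lower after cyclic loess. Members of the list with an unadjusted p under 0.05 numbered 0, 0, 0 and, with TiO2-NB at 100 µg/ml, 3, which were EDEM1, SEL1L and CHAC1. The share of all genes at that unadjusted threshold is not given here either, so these counts are not results about the list. ATF3 lay between 12.27 and 12.94 on all 15 arrays of this time.

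CHAC1 at 1 h read 6.15, 5.84 and 5.79 with TiO2-NB at 100 µg/ml and 6.42, 6.44 and 6.23 in controls. The groups did not overlap, and the difference of -0.43 did not pass (limma, adjusted p = 0.0976). ASNS read 6.36, 6.99 and 6.80 with TiO2-NB and 6.14, 6.52 and 6.44 in controls, overlapping, with a difference of 0.35 (limma, adjusted p = 0.339). Same-numbered arrays deviated together in this comparison (correlations 0.61, 0.69 and 0.60). With the replicate number as a block 0 genes passed in the fit of all arrays. In a fit of these 2 groups alone 0 passed without the block and 2 with it, CHAC1 (adjusted p = 0.0439) and ASNS (adjusted p = 0.0446). MWCNT minus TiO2-NB at 100 µg/ml and 1 h gave 0 calls (1.42% of all genes, 1.13% higher and 0.289% lower). At an unadjusted p under 0.05 there was 1 gene, CHAC1, again without the share of all genes at that threshold. Calls over all genes were 114 higher and 29 lower as deposited, 146 and 11 with median centring, and 82 and 61 after cyclic loess.

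The controls themselves differed between 24 and 1 h. Of the 35 genes 6 were higher and 5 lower at 24 h, with 36.9% of all genes passing (20.8% higher, 16.1% lower). With each array centred on its median 4 were higher and 8 lower, and after cyclic loess 4 and 7, so the balance turned with scaling. Over all genes 2087 were higher and 1621 lower as deposited, 1817 and 1788 with median centring, and 1782 and 1889 after cyclic loess. ATF3 read 11.18, 11.13 and 11.22 in controls at 24 h and 12.49, 12.94 and 12.40 in controls at 1 h, a difference of -1.43 ± 0.15 (SE, limma, adjusted p = 3.02e-08). IRF1 was also lower at 24 h (-1.29), while EGR1 was higher (0.88). EIF2AK3 read 8.28, 8.52 and 8.32 at 24 h and 8.78, 9.14 and 8.84 at 1 h, lower on every 24 h array (-0.55 ± 0.11, SE, limma, adjusted p = 0.00032). ASNS read 6.86, 7.09 and 7.28 at 24 h and 6.14, 6.52 and 6.44 at 1 h, higher on every 24 h array (0.71 ± 0.18, SE, limma, adjusted p = 0.00249). These cultures had been scraped and replated before the clock started, and the part of that step in the differences was not tested.

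CALR read 11.09, 10.99 and 10.99 in controls at 24 h and 10.63, 10.65 and 10.50 at 1 h, a difference of 0.43 (limma, adjusted p = 2.2e-05), and HSP90B1 read 9.30, 9.34 and 8.90 at 24 h and 9.81, 9.43 and 9.75 at 1 h, one of -0.48 (limma, adjusted p = 0.0164). CALR was thus higher and HSP90B1 lower at 24 h than at 1 h in controls, each without overlap. CRELD2 was higher at 24 h by 0.21, SEL1L by 0.30, GARS1 by 0.25 and ATF6 by 0.17, and AARS1 (-0.31) and PPP1R15A (-0.23) were lower. PDIA3 differed by -0.78 without passing (limma, adjusted p = 0.0561), and passed in a blocked fit of these 2 groups (0.00601). Leaving out 1 array gave 7 to 11 calls, 7 of them without replicate 2 of the 1 h controls, and calls for HSP90B1, CRELD2, ATF6, PPP1R15A, AARS1 and GARS1 were lost in at least 1 such fit. Without the arrays that stood apart, 8 genes were higher and 6 lower, with 36.1% of all genes passing. GARS1 (adjusted p = 0.212), ATF6 (0.0609) and PPP1R15A (0.0529) then did not pass. HSPA5 (0.22), MANF (0.34), DNAJB9 (0.32), TRIB3 (0.24), DNAJC3 (-0.38) and PHGDH (-0.25) passed there.

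Against these levels, the ATF3 arrays of TiO2-NB at 100 µg/ml and 24 h (12.47 to 12.62) lay inside the range of the 1 h arrays, and those of CALR (10.53 to 10.60) inside the range of the 1 h controls. CRELD2 (9.24 to 9.45) lay below the controls of both times, which read 9.69 to 9.86 at 1 h and 9.88 to 10.04 at 24 h.

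The effect of 100 µg/ml was then compared between 24 and 1 h, as the difference from control at 24 h minus that at 1 h. For TiO2-NB 6 of the 35 genes had a higher and 9 a lower effect at 24 h, with 16.3% of all genes passing (7.49% higher, 8.85% lower). For MWCNT 2 genes passed, 1 in each direction, with 3.71% of all genes passing (2.64% higher, 1.07% lower). ATF3 with TiO2-NB differed by 0.02 from control at 1 h and by 1.35 at 24 h, and the change of effect was 1.32 ± 0.21 (SE, limma, adjusted p = 0.000143). CHAC1 differed by -0.43 at 1 h and by 0.28 at 24 h, a change of 0.72 ± 0.18 (SE, limma, adjusted p = 0.0102), though neither time passed alone. HSPA5 (-0.36, limma, adjusted p = 0.0716) and DDIT3 (0.30, limma, adjusted p = 0.091) did not pass with all arrays in the fit. Without the arrays that stood apart, the TiO2-NB effect at 24 h was higher in 6 genes and lower in 12, with 12.8% of all genes passing. Of those lower, 10 were chaperones. HSPA5 (-0.42, limma, adjusted p = 0.00924), DNAJB9 (-0.61, 0.0198), HERPUD1 (-0.42, 0.0066) and PHGDH (0.50, 0.0229) passed there, and CHAC1 did not. Values of HERPUD1 had chosen the 1 h arrays left out.

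Of the 35 genes, 18 passed in at least 1 of the 8 exposures and 17 in none. CANX, PDIA3, DNAJB9, DNAJC3, HERPUD1, XBP1, ERN1, TRIB3, PSAT1, PHGDH and VLDLR, 11 genes, passed in none of the 16 comparisons in the fit of 30 arrays. The standard error of a difference was 0.32 for PDIA3 and 0.25 for DNAJB9, against 0.07 for CRELD2. CRELD2 passed in 8 of the 16 comparisons, more than any other of the genes, and CALR and WARS1 in 6 each.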

How the data were processed

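THP-1 RNA was measured on Affymetrix arrays with 22277 probe sets. The authors deposited log2 values. RMA is named, with no version, in the submitters' processing notes. The values were used without further normalization. Probe sets annotated to 1 gene (19064) were kept, with symbols of an older platform annotation updated through Entrez IDs. A probe set had to exceed its array's 25th percentile on at least 3 arrays, and the one with the highest mean stood for a gene, which left 10050 genes. No column belonged to other samples (0). Array number limits the precision, since signal gives no counting depth.

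One limma 3.58.1 model (R 4.3.3) of 10 group means over 30 arrays (20 residual degrees of freedom) gave 16 contrasts, with Benjamini-Hochberg adjustment over 10050 genes and a threshold of 0.05. The members and lists were chosen with earlier results of these data known. Named genes were the 8 largest called differences in each direction and ATF3, ATF4, DDIT3, PPP1R15A, TRIB3, CHAC1, ASNS, HSPA5, XBP1 and ERN1, with values of other members added for the account by role. The script was tested on simulated data for TiO2-NB at 100 µg/ml against control at 24 h with 10050 genes. It recovered 69% of 100 changes of 0.5 and 99% of 100 changes of 1 on the log2 scale, with 6 false calls. The simulated noise was independent between genes and arrays. These rates therefore leave out shifts shared by many genes of an array, as on the arrays that stood apart. Replicate numbers come from the labels. Same-numbered arrays of 2 groups counted as paired where all 3 correlations of their deviations from group means exceeded 0.1. That held in 8 of the comparisons, but not for either material at 100 µg/ml against control at 24 h. The main fit used no pairing in any comparison, and a replicate block entered only in alternatives. Promoters came from RefSeq (GRCh38.p14). Alternatives changed the filter, probe choice, scaling, arrays in the fit, variance model and block.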

Additional observations from a re-analysis of the deposited data

Results flagged for a closer look

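For 17 results the effect of 100 µg/ml, taken as exposed minus control, differed between 24 and 1 h by limma's interaction term (adjusted over 10050 genes). The values are the effect at 24 h minus that at 1 h on the log2 scale. With MWCNT, CRELD2 gave -0.39 ± 0.10 (SE, adjusted p = 0.0334) and WARS1 0.33 ± 0.09 (SE, adjusted p = 0.0297). CRELD2 lost the call without 10 of the 12 arrays taken singly and WARS1 without 8 of them.

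With TiO2-NB, 8 chaperones had a lower effect at 24 h. These were HSP90B1 (-1.04), SDF2L1 (-0.84), CRELD2 (-0.73, adjusted p = 6.27e-05), PDIA4 (-0.72), MANF (-0.66), PDIA6 (-0.48), HYOU1 (-0.46) and CALR (-0.39), and the ERAD adaptor SEL1L gave -0.46. The adjusted p of these 9 lay between 6.27e-05 and 0.0276. ATF3 gave 1.32, CEBPB 0.75, CHAC1 0.72, PPP1R15A 0.60, WARS1 0.44 and ATF4 0.43, with adjusted p from 0.000143 to 0.0103. PDIA6 lost the call without replicate 2 of the 1 h controls, replicate 1 or 2 of the 24 h controls or TiO2-NB replicate 1 at 24 h. HYOU1 lost it without replicate 1 of the 1 h controls, replicate 2 or 3 of TiO2-NB at 1 h, replicate 1 or 2 of the 24 h controls or TiO2-NB replicate 1 at 24 h. CHAC1 did not pass without the arrays that stood apart (0.62, adjusted p = 0.115). The split of all calls was 753 higher and 889 lower as deposited and 1215 higher and 544 lower with each array centred on its median.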

How the results depend on the processing

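Called results for single genes numbered 79, and 33 kept the call in every alternative, with 0 reversed. Of 268 recomputed counts of members passing, 230 stayed within 1.5 times the reported count. With the replicate number as a block in a fit of only the groups compared (chosen after seeing the data), 0 members passed for MWCNT and 7 for TiO2-NB at 100 µg/ml against control at 24 h, 2 for TiO2-NB at 100 µg/ml and 1 h, 0 for MWCNT and 4 for TiO2-NB between doses, 5 between control times and 0 for the MWCNT response. The numbers may not mark pairs in those 2 comparisons with control at 24 h, since same-numbered arrays correlated at -0.47, 0.06 and -0.51 for MWCNT and -0.48, -0.06 and -0.42 for TiO2-NB, and the array that stood apart has different numbers in different groups. The block over all arrays gave 6 for MWCNT and 17 for TiO2-NB there and 0 for TiO2-NB at 100 µg/ml and 1 h. Without a block, only the groups compared gave 4 for MWCNT and 13 for TiO2-NB at 100 µg/ml against control at 24 h. That fit gave 1 for MWCNT between doses, 7 between control times and 0 for the MWCNT response. Median centring gave 1 for TiO2-NB at 100 µg/ml and 1 h, CHAC1, and no filter gave 1 for MWCNT between doses. Without the 10 arrays that stood apart (chosen after seeing the data), 10 passed for MWCNT at 100 µg/ml and 24 h, 5 between MWCNT doses and 4 for the MWCNT response. With 1 array left out, the counts were 2 to 6 for MWCNT and 15 to 18 for TiO2-NB at 100 µg/ml and 24 h, 8 to 14 between materials, 0 to 1 for MWCNT and 11 to 16 for TiO2-NB between doses, 7 to 11 between control times, and 0 to 2 for MWCNT and 13 to 17 for TiO2-NB in the response. In the other comparisons they were 0 to 0. The cause of these changes was not tested, beyond the fewer residual degrees of freedom that smaller fits have. Only 3 arrays a group limit what can be called, and signal near background compresses differences.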
